A study of Rattus norvegicus with 6 samples.

Results

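The transcripts described here are 76 long non-coding RNAs (lncRNAs) of the rat that had no reference gene in the deposited table and were found at or above a fixed level in all 6 tissues measured. A transcript was taken when its class code marked it as unannotated and its mean FPKM (a fragment count divided by transcript length and library size) over the 2 columns of a tissue was 0.5 or more in every tissue. A further 3 transcripts at 2 loci met the floor and were left out by the rule. The 76 transcripts lay at 71 loci and made up 4.41% of the 1722 unannotated transcripts and 3.10% of the 2455 transcripts with values. RNA came from male rats of the inbred strain BN (Brown Norway) aged 6 weeks, with no treatment named in the labels and 1 sample per tissue. The tissues were liver, cortex (of an organ that its label leaves unnamed), the outer medulla of the kidney, the left ventricle, the adrenal gland and the hypothalamus. The hypothalamus columns carry a code, B, that was matched to that tissue by elimination. The columns are called column 1 and column 2, and it is not stated whether they came from separate animals or are repeat measurements. Since these FPKM values chose the transcripts, all levels and ranges below are a description and carry no test.

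A lncRNA is a transcript that is longer than small regulatory RNAs and is not known to encode a protein. Many lncRNAs are made in only some cell types, while a smaller set is found broadly, among them nuclear RNAs that take part in the organisation of the nucleus and host transcripts from which small RNAs are cut. An unannotated transcript is assembled from reads alone, so its ends, its exons and its separation from neighbours are estimates, and no function is known for the transcripts described here from their identifiers.

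No sequence of the 76 transcripts was at hand. The locus with the most of them, XLOC_048695, also held transcripts assigned to Mir29b-1, the gene of a microRNA that represses genes of the extracellular matrix among others. Its mature products are shown because this is a microRNA gene that the table itself names at a locus of the set. They are taken from RefSeq on the GRCr8 assembly (chromosome 4, minus strand), with the seed, bases 2 to 8, in capitals.
rno-miR-29b-3p: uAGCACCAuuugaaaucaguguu
rno-miR-29b-1-5p: uUUCAUAUggugguuuagauuu
The arms have different seeds. The table measured long transcripts, so neither microRNA has a value here.

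The precision of a low value differed between columns. Steps between low FPKM values implied 3870000 fragments in liver column 2, 10160000 to 18350000 in the columns of cortex, outer medulla, left ventricle and adrenal gland and in liver column 1, and 27580000 and 31750000 in hypothalamus. Of the 59 transcripts of the set longer than 500 bases, 26 rested on fewer than 10 estimated fragments in liver column 2, against at most 10 in any other column. Of 36 marker genes looked for to check the tissue labels, 8 had a lncRNA transcript in the table, and 10 of their 11 transcripts were highest in the labelled tissue. The exception, a transcript overlapping the liver gene Fga, was listed at 0 in liver and was highest in adrenal gland. No marker transcript was found for left ventricle, nor for cortex, where genes of kidney cortex were looked for. The 5 transcripts for hypothalamus came from only 2 genes, and outer medulla and adrenal gland rested on 1 transcript each.

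The set was low in most tissues and lowest in hypothalamus as deposited. Over the 76 transcripts the median FPKM was 2.04 in adrenal gland, 1.94 in outer medulla, 1.85 in left ventricle, 1.78 in cortex, 1.77 in liver and 0.921 in hypothalamus. The 5 higher medians lay close together, and the quartiles of each tissue spanned all of them (1.02 to 5.64 in liver, 1.11 to 4.34 in adrenal gland). Annotated transcripts that met the same floor, 63 in number, also had their lowest median in hypothalamus, at 1.25, and their highest in adrenal gland, at 2.99. The 76 transcripts together held from 4.95% (hypothalamus column 2) to 12.6% (outer medulla column 1) of the FPKM of a column. In whole tissue, fewer cells of a type that makes a transcript and less RNA per cell cannot be told apart.

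**Figure D1:**
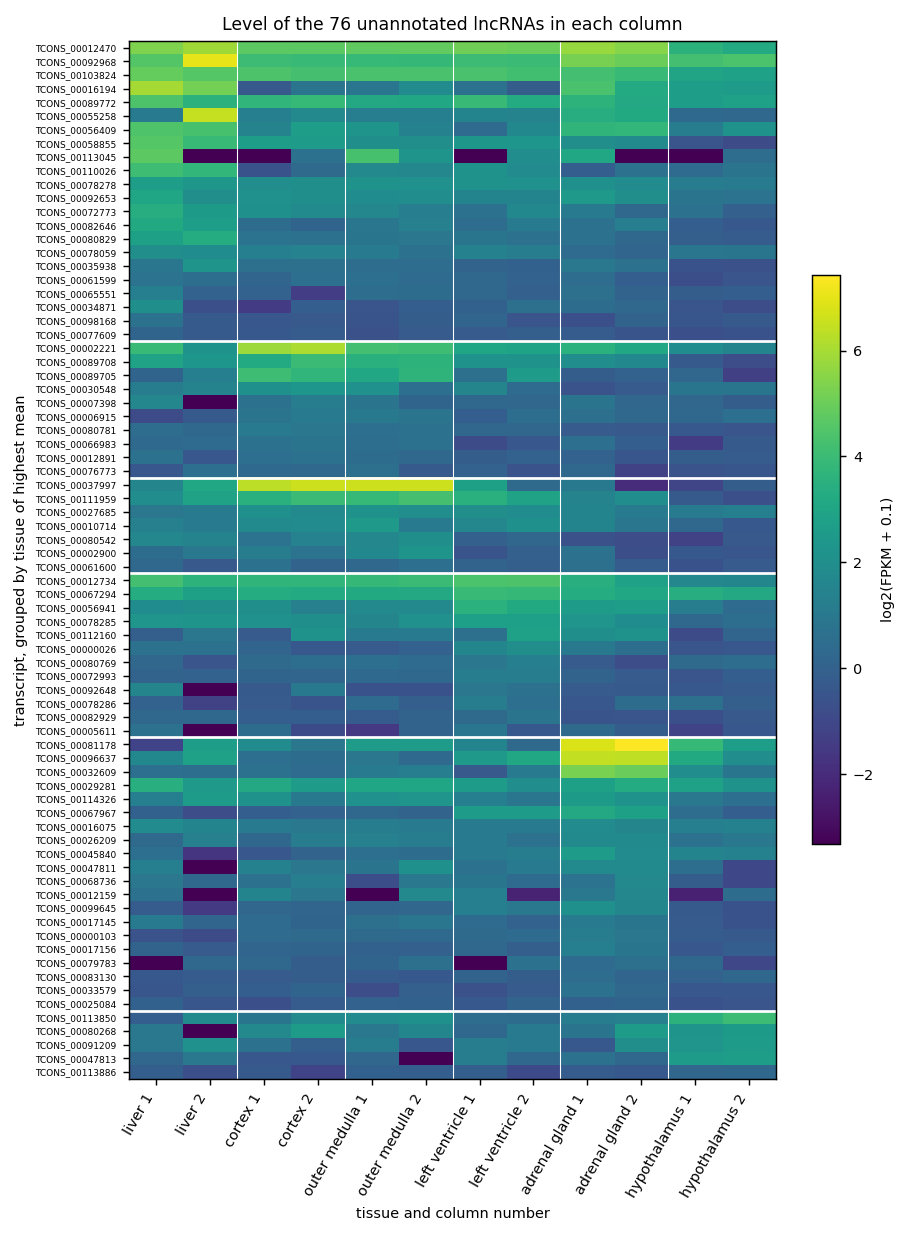
Level of the 76 unannotated lncRNAs (rows, grouped by the tissue of highest mean and ordered by level within a group) in the 12 columns, 2 per tissue, as log2(FPKM + 0.1) on the colour scale. The highest and lowest tissue means of a row differ by a median of 3.98-fold, few rows are bright in only 1 tissue, and 9 transcripts have dark cells where a column is listed at 0.

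Liver was the tissue of highest mean for 22 transcripts, adrenal gland for 20, left ventricle for 12, cortex for 10, outer medulla for 7 and hypothalamus for 5. Hypothalamus was the tissue of lowest mean for 41, liver for 11, cortex for 8, left ventricle for 7, adrenal gland for 6 and outer medulla for 3. The most frequent combination was highest in liver and lowest in hypothalamus, with 15 transcripts. These orders rested in part on single columns. Without liver column 1, adrenal gland was highest for 21 and liver for 17, and liver was lowest for 18 in place of 11. Adrenal gland was lowest for 12 and liver for 10 without adrenal gland column 1. Outer medulla was lowest for 6 without its column 1 and for 8 without its column 2, in place of 3. Cortex was lowest for 5, in place of 8, without left ventricle column 1 or without adrenal gland column 2. Of the transcripts as chosen on both columns, 6 of the 20 transcripts highest in adrenal gland were lowest in liver. Among the 63 annotated transcripts at the floor, 30.2% were highest in liver against 28.9% of the set, and 52.4% were lowest in hypothalamus against 53.9%. Other shares were further apart: 6.35% against 13.2% were highest in cortex and 23.8% against 15.8% in left ventricle. Lowest in liver were 23.8% against 14.5%, in left ventricle 3.17% against 9.21% and in adrenal gland 1.59% against 7.89%. In the annotated transcripts these shares rest on 4 and 15 for the highest tissue, and on 15, 2 and 1 for the lowest.

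The place of hypothalamus depended on the scaling between tissues. When the tissues were brought to the same median over the 1086 transcripts of the table above 0 in all of them, the log2 shifts were 0.86 in hypothalamus, 0.11 in liver, 0.04 in left ventricle, -0.07 in adrenal gland, -0.41 in cortex and -0.53 in outer medulla. After that rescaling 10 transcripts were lowest in hypothalamus and 21 were highest there, while cortex and outer medulla were lowest for 21 and 20. Rescaling by the annotated transcripts at the floor, with log2 shifts of 0.84 in hypothalamus, 0.12 in cortex, -0.08 in liver, -0.09 in outer medulla, -0.36 in left ventricle and -0.42 in adrenal gland, also left 10 lowest in hypothalamus, with left ventricle and adrenal gland lowest for 22 transcripts each. Liver was highest for 23 and 20 transcripts under these scalings and adrenal gland for 14 and 7. In all 3 scalings 47 transcripts kept their highest tissue (20 liver, 8 left ventricle, 7 adrenal gland, 5 cortex, 5 hypothalamus and 2 outer medulla), and 26 kept their lowest, 8 of them in hypothalamus.

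**Figure D2:**
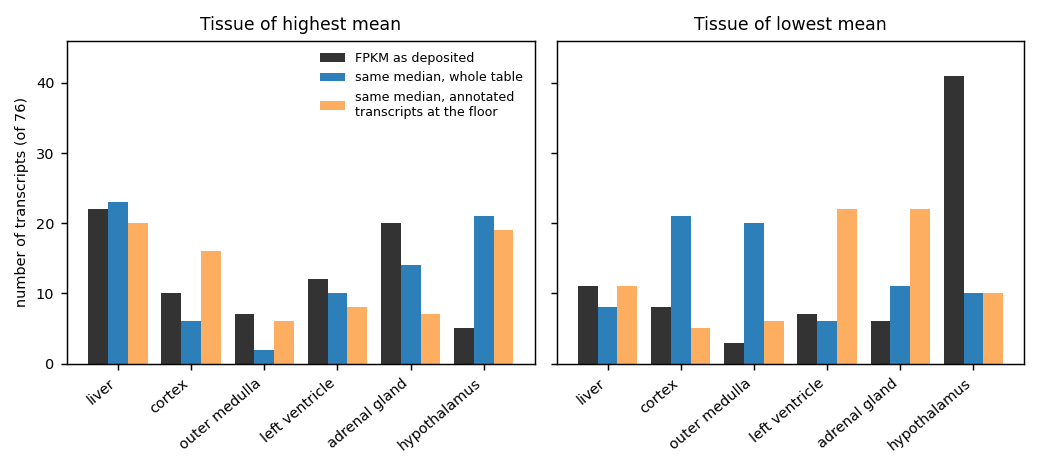
Number of the 76 transcripts with their highest (left) and lowest (right) tissue mean in each tissue, for FPKM as deposited and for 2 rescalings of the tissues to the same median. Liver stays at 20 to 23 as the highest tissue, and hypothalamus goes from 41 to 10 as the lowest tissue and from 5 to 21 or 19 as the highest.

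The range across tissues, the ratio of the highest to the lowest tissue mean, was 1.60 to 166 with a median of 3.98 and quartiles of 2.58 and 7.63. Of the 76 transcripts, 12 varied by less than 2-fold, 33 by 5-fold or more and 18 by 10-fold or more. Annotated transcripts at the floor had a median range of 4.01, with 17 of 63 at 10-fold or more. Of the 76 transcripts, 17 were at least 2-fold and 3 at least 5-fold above the next tissue. In 46 the highest tissue was less than 1.5 times the next. These shares were not computed for other transcripts at the floor. The rule itself asks for 0.5 FPKM in every tissue, so they are not read as a trait of the set. Detection in every tissue went with ranges of very different size.

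**Figure D3:**
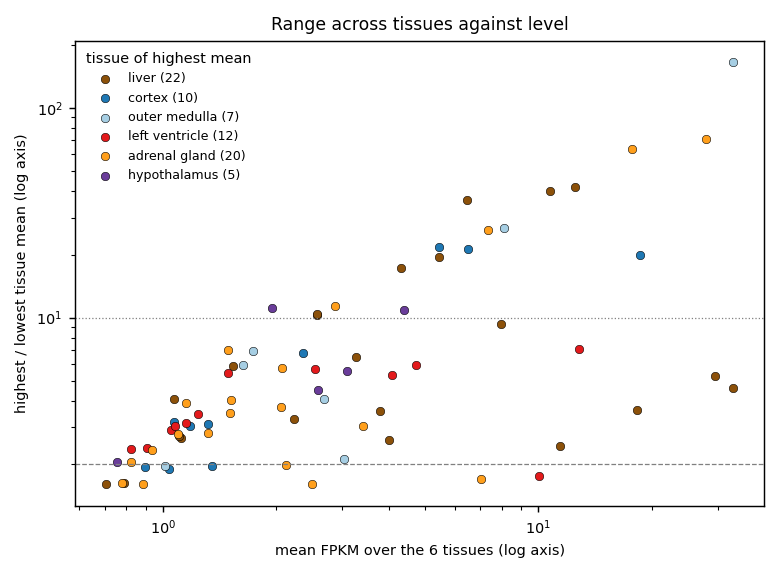
Ratio of the highest to the lowest tissue mean (log axis) against the mean FPKM over the 6 tissues (log axis), 1 point per transcript, coloured by the tissue of highest mean, with lines at 2-fold and 10-fold. The floor of 0.5 limits the ratio of low transcripts, and the largest ratio, 166, belongs to a transcript with a mean of 32.9.

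The flattest transcripts were mostly low and long. TCONS_00083130 (7170 bases, rn5 chromosome 5, 145930100 to 145937648) had the smallest range, 1.60, with 1.31 and 1.02 FPKM in adrenal gland, 0.951 and 1.15 in hypothalamus, 0.959 and 0.794 in left ventricle, 0.780 and 0.679 in outer medulla, 0.741 and 0.798 in cortex and 0.684 and 0.772 in liver. Its adrenal gland and hypothalamus columns overlapped. TCONS_00016075 (17472 bases, chromosome 10, 67431857 to 67453561) kept within 1.62-fold, between means of 1.98 in cortex and 3.21 in adrenal gland, and liver at 3.16 was level with adrenal gland. TCONS_00067294 (11749 bases, chromosome 3, 117945186 to 117962766) was the flattest at a higher level: left ventricle had 14.9 and 14.3, above every other column, and the other tissue means lay between 8.33 in liver and 9.60 in hypothalamus. TCONS_00029281, of 284 bases, stayed between 4.88 in left ventricle and 8.30 in adrenal gland. TCONS_00077609, TCONS_00025084, TCONS_00098168 and TCONS_00012891 completed the 8 smallest ranges, at 1.61, 1.63, 1.64 and 1.91, with means over the tissues of 0.708, 0.780, 0.788 and 1.04. After rescaling by the whole table all 8 were highest in hypothalamus, with ranges of 1.94 to 3.77, so their order of tissues as deposited rests on the scaling.

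**Figure D4:**
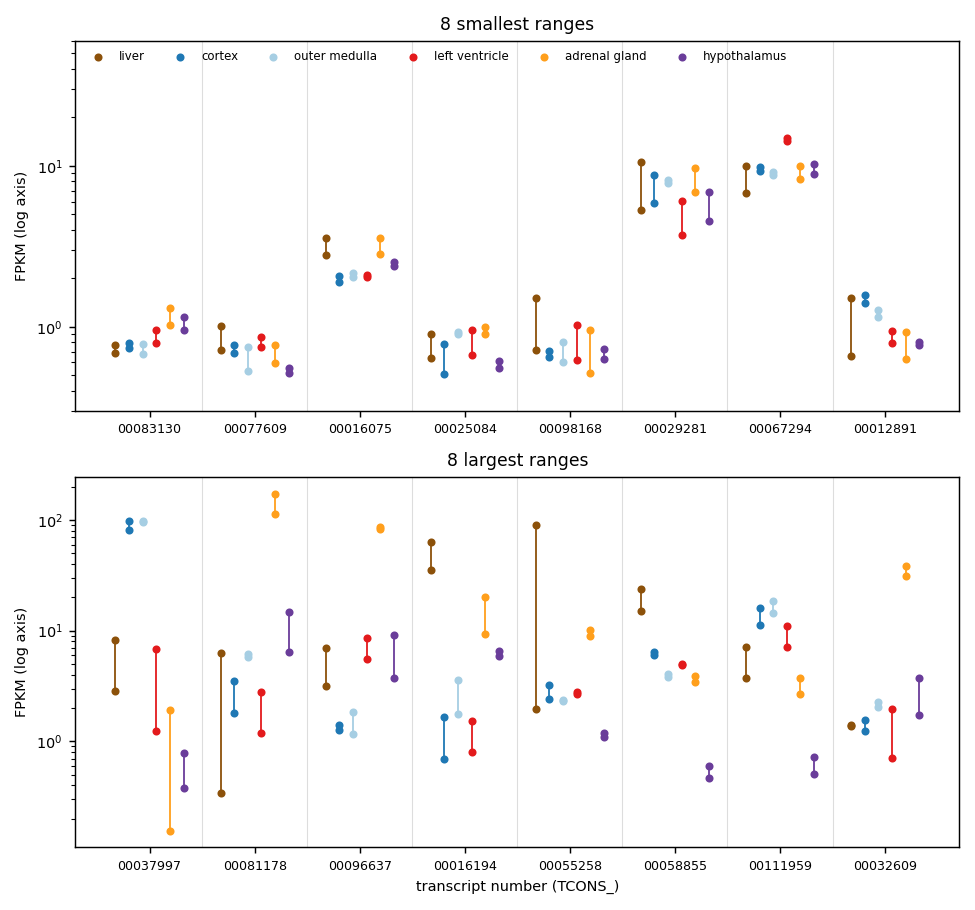
FPKM (log axis) in both columns of each tissue for the 8 transcripts with the smallest (top) and the 8 with the largest (bottom) ratio of highest to lowest tissue mean. Points are columns, joined within a tissue. Within the flattest 8 the tissues overlap or nearly do, except for left ventricle in TCONS_00067294, at 14.9 and 14.3, above every other column. Among the widest 8 the TCONS_00055258 liver columns, at 1.98 and 89.5, stand further apart than its other tissues.

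The widest range belonged to a transcript shared by cortex and outer medulla. TCONS_00037997 (390 bases, chromosome 15, 30010515 to 30035706) had 80.8 and 98.1 FPKM in cortex, with outer medulla at 96.0 and 97.2. Liver had 2.87 and 8.24, left ventricle 6.83 and 1.23, adrenal gland 1.92 and 0.157, and hypothalamus 0.376 and 0.790. The cortex and outer medulla columns overlapped, and both tissues were above every column of the other 4. It was highest in cortex and lowest in adrenal gland after either rescaling, with ranges of 68.1 and 126. TCONS_00111959 (326 bases, chromosome X, 111226375 to 111437329) had the same leading tissues at a lower level, with 14.4 and 18.7 in outer medulla, 11.3 and 15.9 in cortex and 0.725 and 0.509 in hypothalamus. Cortex and outer medulla were the 2 highest tissues for 13 transcripts.

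TCONS_00002221 (458 bases, chromosome 1, 91957641 to 92293366) set cortex apart from outer medulla. It had 57.6 and 69.0 FPKM in cortex against 18.2 and 17.0 in outer medulla. Hypothalamus, at 3.59 and 2.74, was the lowest tissue under every scaling used. Cortex was 3.6 times outer medulla, and its columns were above all others. The transcript of outer medulla that exceeded its next tissue most was TCONS_00002900, with 3.18 and 4.62 in outer medulla and 2.22 and 1.63 in cortex, the next tissue, a ratio of 2.03. It is 1 of 17 transcripts listed at its locus and held 17.8% of the FPKM of that locus in outer medulla. TCONS_00030548 had 4.10 and 4.93 in cortex, but its outer medulla columns, 4.17 and 1.41, overlapped with them.

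Transcripts highest in adrenal gland included the most selective of the set. TCONS_00081178 (205 bases, chromosome 5, 30050648 to 30052169) reached 114 and 171 FPKM in adrenal gland. Its values were 14.8 and 6.47 in hypothalamus, 5.82 and 6.10 in outer medulla, 0.345 and 6.29 in liver, 3.53 and 1.82 in cortex and 2.80 and 1.20 in left ventricle. TCONS_00096637 (506 bases, chromosome 7, 9865669 to 10274413, overlapping the interval of Zfp347, a zinc finger gene) reached 86.9 and 83.6 in adrenal gland, with 1.17 to 9.18 in the columns of the other tissues. TCONS_00032609 (2387 bases, chromosome 14, 43490511 to 43627587) reached 38.6 and 31.2 there, with 0.712 to 3.72 elsewhere. These were the 3 transcripts at least 5-fold above their next tissue, by 13.4, 12 and 12.8 times, and they were highest in adrenal gland under each scaling. In hypothalamus column 1 they stood at 10.4, 10.8 and 10.6% of their adrenal gland mean, and in column 2 at 4.54, 4.37 and 4.95%. The transcript overlapping Cyp11b3, a gene of steroid synthesis, had a mean of 52.4 in adrenal gland and 3.55 in hypothalamus, and whether RNA of adrenal gland was in the hypothalamus columns was not tested. The other 17 transcripts highest in adrenal gland were less than 5-fold above the next tissue, and over all 20 the median range was 3.28.

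Liver held the highest mean for 22 transcripts against 20 in adrenal gland, a lead that turned without liver column 1 (17 against 21), and its columns stood furthest apart. TCONS_00016194 (410 bases, chromosome 10, 71354842 to 71454908) had 62.6 and 35.6 FPKM in liver, 20.2 and 9.32 in adrenal gland, 6.49 and 5.85 in hypothalamus and from 0.693 to 3.58 in the columns of the other 3 tissues. TCONS_00058855 (4201 bases, chromosome 2, 72181491 to 72445704) had 23.7 and 15.2 in liver and 0.606 and 0.465 in hypothalamus, and the other 4 tissue means lay between 3.67 and 6.23. In both, the liver columns were above all other columns. TCONS_00080829, the longest transcript of the set at 24315 bases (chromosome 5, 10306547 to 10547228), had 6.79 and 9.87 in liver, 4.73 times the mean of the next tissue, outer medulla, and 0.855 and 0.765 in hypothalamus. TCONS_00110026 had 16.7 and 13.7 in liver and was lowest in cortex, at 0.552 and 1.21. TCONS_00056409, of 215 bases, had 21.8 and 19.3 in liver and 13.1 and 13.9 in adrenal gland, and these were the 2 highest tissues of 9 transcripts.

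For other transcripts a single liver column decided the order. TCONS_00055258 (1645 bases, chromosome 2, 113897968 to 113996755) had 1.98 in liver column 1 and 89.5 in column 2, with 10.2 and 9.01 in adrenal gland and from 1.09 to 3.24 in the other columns. In column 1 alone it was highest in adrenal gland. TCONS_00092968 (1481 bases, chromosome 6, 137945838 to 137947485) had 23.1 and 129 in liver and 36.9 and 32.3 in adrenal gland, and was highest in adrenal gland in column 1. Its other tissues kept between 14.2 and 20.8. TCONS_00113045, the shortest transcript at 169 bases, had 26.2 in liver column 1 and was listed at 0 in liver column 2 and in 4 further columns. Its order of tissues is not readable from these values, although its means passed the floor.

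Left ventricle led by smaller margins. TCONS_00000026 (2542 bases, chromosome 1, 3369312 to 3430853) had 2.98 and 3.91 FPKM in left ventricle. Adrenal gland was next at 1.96 and 1.36, and hypothalamus was lowest at 0.611 and 0.649. It was the only transcript at least 2-fold above the next tissue there, by 2.08 times. TCONS_00072993 had 2.27 and 2.20 in left ventricle and from 0.603 to 1.19 in the columns of the other tissues. TCONS_00012734 (900 bases, chromosome 1, 234177787 to 234180817) had 20.8 and 21.5 in left ventricle, 18.2 and 12.2 in liver, and 3.05 and 2.94 in hypothalamus, which was lowest under each scaling. In all 3 the left ventricle columns were above every other column, as in 8 of the 12 transcripts highest there.

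Hypothalamus was the highest tissue of 5 transcripts as deposited, and all 5 kept it under both rescalings, among 21 and 19 highest there in all. TCONS_00113850 (436 bases, chromosome X, 106761991 to 106762937) had 11.8 and 16.3 FPKM in hypothalamus, with the next tissue, outer medulla, at 3.58 and 4.12, and 1.32 and 1.28 in left ventricle, the lowest. It lay 43381 bases from a transcript assigned to Armcx5. TCONS_00047813 (1780 bases, chromosome 18, 4296286 to 4334646) had 5.80 and 6.25 in hypothalamus and no more than 2.22 in any other column, with a 0 listed in outer medulla column 2. TCONS_00080268, of 221 bases, had 4.63 and 5.77 in hypothalamus and 3.20 and 6.07 in cortex, so these tissues overlapped. In 4 of the 5 the hypothalamus columns were above all others. Both hypothalamus columns lay below all other columns in 21 of the 41 transcripts lowest there, for example in TCONS_00058855 and in TCONS_00089708, which had 0.724 and 0.478 in hypothalamus against 3.11 or more in every other column.

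The 8 transcripts with the highest mean had ranges of 3.61 to 166, near or above the median of the set, 3.98. TCONS_00037997, TCONS_00081178 and TCONS_00096637, described above, were among the 8 transcripts with the highest mean and among the 8 with the widest range. TCONS_00012470 (22514 bases, chromosome 1, 228114561 to 228137221) had the highest mean over the tissues, 33.0 FPKM, with 40.2 and 59.2 in liver, 53.8 and 44.7 in adrenal gland, 34.3 and 32.4 in left ventricle, 28.1 and 28.9 in outer medulla, 26.2 in both cortex columns and 12 and 9.44 in hypothalamus. Liver and adrenal gland overlapped, and hypothalamus was below all other columns and lowest under each scaling. TCONS_00103824 (5272 bases, chromosome 8, 45726441 to 45732210) had liver columns of 29.2 and 23.8, a mean of 7.33 in hypothalamus and a range of 3.61.

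Some transcripts were lowest in a tissue other than hypothalamus under each scaling. TCONS_00006915 (490 bases) had 0.468 and 0.735 FPKM in liver, below all other columns, and 1.64 and 2.09 in cortex, its highest tissue as deposited. TCONS_00078059 (3838 bases) had 1.27 and 1.02 in adrenal gland, below all other columns, and 3.88 and 3.63 in liver, its highest tissue. The next 2 were less separate. TCONS_00092648 (2859 bases) had 0.559 and 0.549 in outer medulla, but liver, at 2.91 and 0, enclosed these values. TCONS_00065551 (3066 bases) had 0.939 and 0.292 in cortex, which overlapped with 0.795 and 0.817 in hypothalamus.

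Pairs of tissues were compared by a rule of size, since a test on the values that chose the transcripts would be circular. A transcript was called higher in a tissue when its mean was at least 2-fold higher and both columns were above both columns of the other tissue. The background for each pair is the share called among all transcripts of the table with a mean of 0.5 or more in both tissues, the set included. In the 15 pairs of tissues 380 of 1140 comparisons were called. No background was pooled over all pairs for this count, and the background is given pair by pair below. The 12 transcripts with a range under 2-fold could have no call.

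Calls against hypothalamus were the most frequent as deposited. Liver was higher than hypothalamus for 33 transcripts, 43.4% of the set, against a background of 33%, and hypothalamus was higher for 6 (background 10.8%). Adrenal gland was higher for 33 (background 41.2%) and lower for 5 (11.2%). Outer medulla was higher than hypothalamus for 29 (30.2%) and lower for 6 (9.91%), left ventricle was higher for 27 (30.6%) and lower for 6 (9.91%), and cortex was higher for 25 (30.3%) and lower for 8 (6.73%). The shares of the set thus followed the background in direction. Over these 5 pairs, hypothalamus was lower in 147 of 380 comparisons (38.7%, background 33.4%) and higher in 31 (8.16%, background 9.81%). After rescaling by the whole table it was lower in 54 of 380 (background 13.3%) and higher in 89 (28.6%), so the direction of the split turned with the scaling.

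Cortex and outer medulla differed least. Cortex was higher than outer medulla for 2 transcripts, 2.63% of the set, against a background of 12.8%, and outer medulla was higher for 6 (7.28%). Across the 76 transcripts the log2 levels of cortex and outer medulla had a Pearson correlation of 0.895 and a Spearman correlation of 0.846, the highest of the 15 pairs. Adrenal gland and hypothalamus had 0.711 and 0.621, while cortex and hypothalamus had the lowest, 0.389 and 0.371. These correlations are over transcripts that share libraries and depth and are given without a test.

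The remaining pairs had calls in both directions as deposited. Liver was higher than cortex for 13 transcripts (background 16.9%) and lower for 10 (11.2%), higher than outer medulla for 11 (18.2%) and lower for 8 (10.9%), higher than left ventricle for 13 (20.1%) and lower for 9 (14.6%), and higher than adrenal gland for 10 (15.8%) and lower for 13 (19%). Cortex was higher than left ventricle for 9 (16.1%) and lower for 11 (15.3%), and higher than adrenal gland for 11 (14.6%) and lower for 13 (11.9%). Outer medulla was higher than left ventricle for 12 (16.4%) and lower for 7 (17%), and higher than adrenal gland for 9 (13.1%) and lower for 13 (16.8%). Left ventricle was higher than adrenal gland for 11 (16.5%) and lower for 11 (18%). Each of these counts lies between 7 and 13 of the 76 transcripts, or 9.21 to 17.1% of the set, on the deposited scale.

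Rescaling by the whole table changed these splits. Liver was then higher than cortex for 20 transcripts (background 28.1%) and lower for 5 (6.01%), higher than outer medulla for 25 (33.3%) and lower for 2 (4.48%), higher than left ventricle for 14 (20.4%) and lower for 9 (14.3%), and higher than adrenal gland for 14 (20%) and lower for 11 (15.5%). Cortex was higher than left ventricle for 6 (10.4%) and lower for 18 (25.6%), and higher than adrenal gland for 8 (9.45%) and lower for 23 (23.5%). Outer medulla was higher than left ventricle for 5 (9.19%) and lower for 20 (29.5%), and higher than adrenal gland for 7 (8.38%) and lower for 23 (26.5%). So outer medulla went from more calls to fewer calls than left ventricle, and liver from fewer to more than adrenal gland. Left ventricle was higher than adrenal gland for 13 (19.8%) and lower for 7 (14.4%), and cortex and outer medulla were higher than each other for 3 each (14.7% and 5.51%). Against hypothalamus, liver was higher for 17 (15.8%) and lower for 15 (23.6%), and adrenal gland higher for 13 (19.9%) and lower for 11 (22.5%). Cortex was higher than hypothalamus for 6 (8.65%) and lower for 23 (34.6%), outer medulla higher for 9 (7.76%) and lower for 25 (40.5%), and left ventricle higher for 9 (13.1%) and lower for 15 (22.5%). The last 3 splits ran opposite to those as deposited.

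The columns set how far a tissue of highest or lowest level can be read for a single transcript. The highest tissue was the same in column 1 and column 2 for 41 transcripts and the lowest for 34. Both columns of the highest tissue were above both of the lowest in 74 of 76 (95.1% of all 142 transcripts at the floor), and above every other column in 36 (45.1% of the 142), of which liver and adrenal gland led 10 each, left ventricle 8, hypothalamus 4, cortex 3 and outer medulla 1. Both shares were near those of all transcripts at the floor, and the extremes were picked from these same columns. Columns were 2-fold or more apart for 31 transcripts in liver, 13 in left ventricle, 12 in cortex, 12 in hypothalamus, 11 in outer medulla and 8 in adrenal gland, and 4-fold or more apart for 14 in liver and for at most 6 in any other tissue. These counts include transcripts listed at 0 in 1 column of the tissue. A column was listed at 0 for 9 transcripts, 8 of which had a 0 in liver. A listed 0 may also stand for a failed estimate. At the depth of liver column 2, a count of 0 allows up to 0.775 FPKM (for 1 kb of usable length), counting error only.

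**Figure D5:**
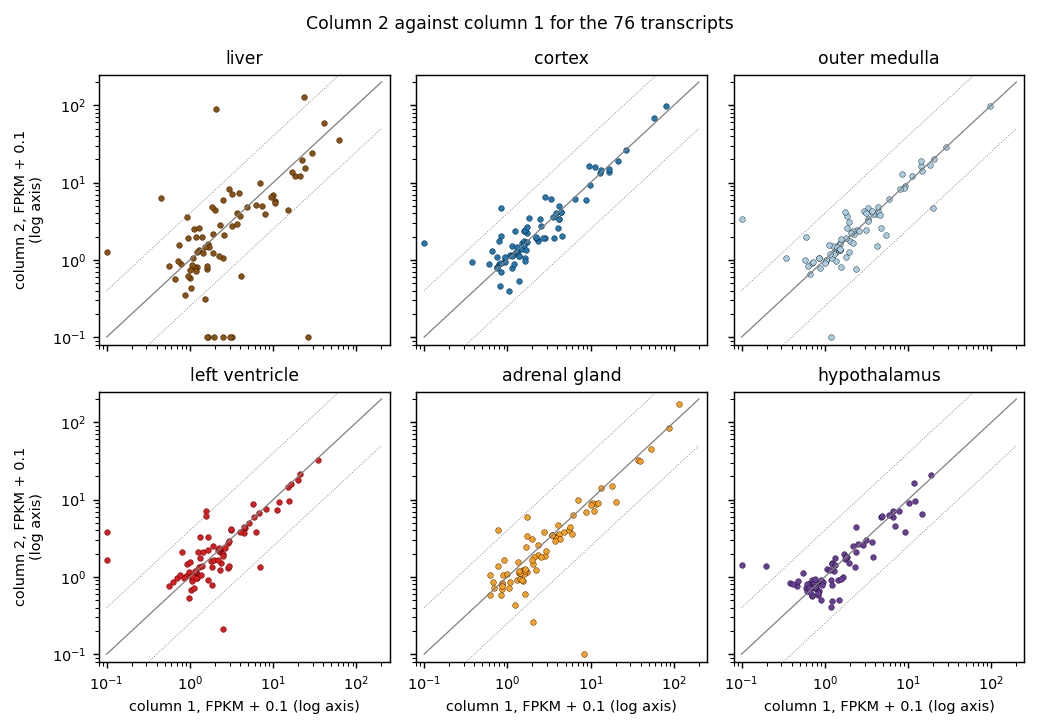
Column 2 against column 1 for the 76 transcripts in each tissue, both as FPKM + 0.1 on log axes, with a line of equality and dotted lines at 4-fold. Liver points scatter most, with 14 transcripts 4-fold or more apart, of which 8 are listed at 0 in a liver column. Points on an edge of a panel are listed at 0 in a column.

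Most of the transcripts were alone at their locus. This held for 53 of 76 (69.7%), against 46.1% of all unannotated transcripts. Of the 63 annotated transcripts at the floor, 88.9% were alone, so this is not particular to the set. Several of the 76 shared a locus at 4 loci. XLOC_048695 (chromosome 4, 58098301 to 58417174), the Mir29b-1 locus whose mature products are shown above, held 3 of its 7 listed transcripts. There TCONS_00078278 (21449 bases) had 6.17 and 4.99 FPKM in liver, its highest tissue, and 2.26 and 2.0 in hypothalamus, with tissue means of 3.80 to 4.37 between them. TCONS_00078285 (9598 bases) was highest in left ventricle, at 6.62 and 6.55, and lowest in hypothalamus, at 1.12 and 1.36. TCONS_00078286 (9099 bases) was lower throughout, with a highest mean of 1.84 in left ventricle and a lowest of 0.632 in liver, and its left ventricle columns, 2.25 and 1.43, overlapped with those of hypothalamus, 1.45 and 0.844. Left ventricle thus led for 2 of the 3 and liver for 1, and how the FPKM of the locus was divided among overlapping transcripts was estimated by the authors' program.

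Transcripts of a locus could also lead in different tissues. At XLOC_029505 (chromosome 18), TCONS_00047811 was highest in adrenal gland, with a mean of 3.37, and stood at 0.897 in hypothalamus. Its outer medulla columns, 1.66 and 4.11, enclosed those of adrenal gland, and outer medulla led after rescaling by annotated transcripts. In contrast, TCONS_00047813 was highest in hypothalamus, with 6.03, and stood at 1.33 in adrenal gland. At XLOC_055867 (chromosome 6), TCONS_00089705 and TCONS_00089708 were both highest in cortex, with means of 15.1 and 12.8. Outer medulla was next in both, with 10.5 and 11.6. For TCONS_00089708 the cortex columns, 9.51 and 16.1, enclosed those of outer medulla, 11.0 and 12.2. At XLOC_038163, TCONS_00061599 and TCONS_00061600 kept close together, with highest means of 1.49 in liver and 1.27 in outer medulla and lowest means of 0.555 and 0.647 in hypothalamus. Beyond the Mir29b-1 locus, 2 transcripts shared a locus with annotated ones: TCONS_00035938 with transcripts assigned to Fhit, a gene at a fragile chromosome site, and TCONS_00076773 with a transcript of ENSRNOG00000028671. In all, 6 of the 76 overlapped the interval of an annotated transcript of the table and 10 lay within 50 kb of such an interval.

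In length the set held more of both ends than the unannotated transcripts at large. Its median was 1766 bases against 1934. Of the set 17 (22.4%) were under 500 bases, against 6.27% of all unannotated transcripts and 17.5% of annotated ones at the floor. Those of 8 kb or more numbered 11 (14.5%), against 9.47% and 6.35%. The short transcripts had higher means and wider ranges: the 17 under 500 bases had a median mean of 5.44 FPKM and a median range of 5.58, the 35 of 500 to 3000 bases had 1.95 and 4.08, and the 24 of 3000 bases or more had 1.88 and 3.17. A short transcript needs a higher FPKM for the same number of fragments, and the part of length in these ranges was not tested. The set came from 18 of 21 chromosomes, with 12 transcripts on chromosome 1, 9 on chromosome 4 and none on chromosomes 16, 19 and 20. Chromosome X held 6 (7.89%), against 2.38% of all unannotated transcripts.

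Several transcripts were close to the floor. TCONS_00066983 met it with a hypothalamus mean of 0.50 (0.277 and 0.724), TCONS_00080542 with an adrenal gland mean of 0.504 (0.526 and 0.482) and TCONS_00099645 with a liver mean of 0.511 (0.772 and 0.249). Just outside were TCONS_00082925, with a hypothalamus mean of 0.495 (0.482 and 0.507), TCONS_00047685, with 0.479 in adrenal gland (0.957 and 0), and TCONS_00045829, with 0.476 in cortex (0.552 and 0.399). The column values of these 6 overlapped, so the floor does not separate them beyond the spread between columns. Of the 76 transcripts, 45 were at 0.5 or more in all 12 columns, 31 were under it in at least 1 column, and 26 had a mean of 1 FPKM or more in each tissue.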

How the data were processed

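Per the labels' protocols, TRIzol served for extraction and the TruSeq Stranded RNA LT kit for the libraries. The deposited values are FPKM per transcript, which the authors had computed for transcripts selected as lncRNAs. The submitters' processing notes name the build rn5 and the program bcl2fastq 2.15.0. Not given in the sources used here are the aligner, the FPKM program, the annotation, the strand setting and the lncRNA criteria. Without a stated strand setting, it is not known whether reads of overlapping and antisense genes were told apart. Transcript lengths and locus coordinates are as deposited, with no statement on the first base being 0 or 1. Each of 6 tissues had 1 sample and 2 FPKM columns, which were averaged. Of 2458 rows, 3 had no values.

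Members and lists were chosen with earlier results of these data known. The transcripts named were the 8 with the highest mean, the 8 with the smallest and the 8 with the largest range, and for each tissue the 2 that exceeded the next tissue most and the 2 furthest below the next lowest. To these were added all members of a locus with 3 or more, the 3 longest, the 3 shortest, and the 3 on either side of the floor. Other transcripts named were chosen after their values were seen, as examples of loci with several members or near a named gene. No count test was possible on FPKM, and no test was run, since the rule had used the values. Depth was estimated from the steps between low FPKM values of transcripts over 500 bases, assuming a mean fragment of 140 bases, and 83.1 to 90.9% of them came out whole with a tolerance of 0.15 fragments. The calls and the depth estimate were tested on simulated data. RefSeq microRNA sequences (GRCr8) were matched by gene symbol, and no transcript could be matched to a sequence. Alternatives covered the floor, the columns, the scaling, the tissues used, sums per locus, pseudocounts and the fold of a call. Python 3.11.15, pandas 2.3.3, NumPy 2.4.6 and matplotlib 3.10.9 were used.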

Additional observations from a re-analysis of the deposited data

How the results depend on the processing

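The number of transcripts was 26 at a floor of 1 FPKM, 165 at 0.25, 780 above 0, 45 with 0.5 or more in every column and 119 without hypothalamus, against 76. Liver was the highest tissue for 42.3% at a floor of 1, but adrenal gland led at a floor of 0.25 (49 against 34 of 165) and cortex and adrenal gland led above 0 (166 and 161 against 150 of 780). In sums per locus liver and adrenal gland had 28 each of 93. Hypothalamus was the lowest tissue for 40.8% above 0, for 13.2% after either rescaling and for 20.5% with the transcripts chosen again on rescaled values, against 53.9%. The median range, 3.98, was 4.95 at a floor of 1, 30.7 above 0, 3.61 with the floor in every column, 3.58 with the transcripts chosen again after rescaling, 3.14 without liver, 2.92 without hypothalamus, 3.59 and 2.39 with 0.1 and 1 added to FPKM, 3.61 for transcripts of 300 bases or more, and 3.38 after rescaling by annotated transcripts. Called pairs numbered 724 with no fold minimum and 154 at 4-fold, against 380. The mean share of a column's FPKM was 12.3% without the most abundant transcript of each column, against 8.88%. The cause of these changes was not tested. Leaving out each column in turn gave 65 to 79 transcripts, 22.4 to 34.2% highest in liver (the lowest without liver column 1, where adrenal gland led with 27.6%), 47.4 to 56.6% lowest in hypothalamus, a median range of 3.92 to 5.39 (the latter without liver column 1) and 388 to 433 called pairs. Of the other values, which are shares for the other tissues and calls for each pair, 265 stayed within the 95% binomial interval (shares) or 1.5 times the count (calls) and 93 did not. The interval treats transcripts as independent, which they are not, so it served only as a yardstick of size and measures no spread between samples. The majority of calls turned with rescaling in several pairs, as printed beside those counts. The alternatives by length, by columns listed at 0 and by annotated transcripts were chosen after seeing the data. No paired analysis was possible because each tissue had 1 sample, and it is not stated whether columns of the same number share an animal. Liver column 2, with the fewest fragments, limits what can be read of low transcripts in liver.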

Other observations

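The share of transcripts at 0.5 FPKM or more in all 6 tissues differed between the classes of the table. Of 88 transcripts that share a splice junction with a reference gene, 28 (31.8%) met the floor. Of 226 with another overlap 19 (8.41%) did, of 230 that match a reference transcript 12 (5.22%), of 1722 unannotated ones 79 (4.59%, the excluded loci included), and of 189 with an exon antisense to a gene 4 (2.12%). These classes differ in what their FPKM can include, and the shares are given without a test.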
